A study of Homo sapiens with 6 samples.

Results

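The genes described here are 10 epithelial keratin, claudin, mucin and junction genes. They are the keratins KRT7, KRT8, KRT18 and KRT19, the tight junction genes CLDN1, CLDN4, OCLN and TJP1, the mucin MUC1 and the adhesion molecule EPCAM. They were taken by gene symbol, each matched 1 of the 60419 genes listed, and all 10 passed the filter on low counts that left 16395 genes tested. RNA was sequenced from 12Z, an immortalised cell line derived from human endometriosis, tissue of endometrial type that grows outside the uterus. In 3 libraries the cells had received myrrh extract, from the resin of Commiphora trees, for 12 h at 100 µg/mL in DMSO (Myrrh), and in 3 libraries DMSO alone (DMSO). All cells were of the 12Z wild type line, in medium with 10% charcoal-stripped serum, which removes most steroid hormones from both groups. Separate cultures are not stated for the replicates; p-values therefore reflect variation among the libraries at hand, which may be technical, and the results hold for 1 cell line.

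Keratins are intermediate filament proteins that assemble as pairs of a type II and a type I chain, and simple epithelia such as the lining of the endometrium are built mainly on the pair KRT8 and KRT18. Claudins and occludin span the membrane at the tight junction, the seal between neighbouring epithelial cells, and the scaffold protein ZO-1, the product of TJP1, ties them to actin. MUC1 forms a glycosylated layer on the free surface of the cells, and EPCAM is a membrane glycoprotein of epithelial cell contacts. In the endometrium most of these genes are more typical of the epithelium of glands and surface than of the stroma around them.

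After myrrh extract 5 of the 10 genes were higher (CLDN1, EPCAM, OCLN, KRT7 and TJP1) and 5 were lower (MUC1, CLDN4, KRT19, KRT8 and KRT18). CLDN1 rose 7.78-fold and MUC1 fell 5.5-fold, and these were the largest changes in each direction. On estimated counts EPCAM rose and CLDN4 fell by more than 2-fold, while the other 6 genes changed by less than that. The background was high: of all genes tested, 78.4% passed an adjusted p of 0.05 (edgeR's quasi-likelihood test, p adjusted by Benjamini-Hochberg), 39.3% higher and 39.1% lower, so 10 of 10 called is not by itself a result about these genes. A change of at least 2-fold was called in 4 of the 10, against 29.4% of all genes tested. The libraries of the groups did not overlap in CPM (counts scaled to library size) for any of the 10 genes, as held for 80.2% of all genes tested. The median log2 fold change, Myrrh over DMSO in all that follows, was 0.09 over the 10 genes and -0.02 over all genes tested. In bulk RNA, a change in the number of cells that hold a transcript and a change in its amount per cell cannot be told apart.

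**Figure D1:**
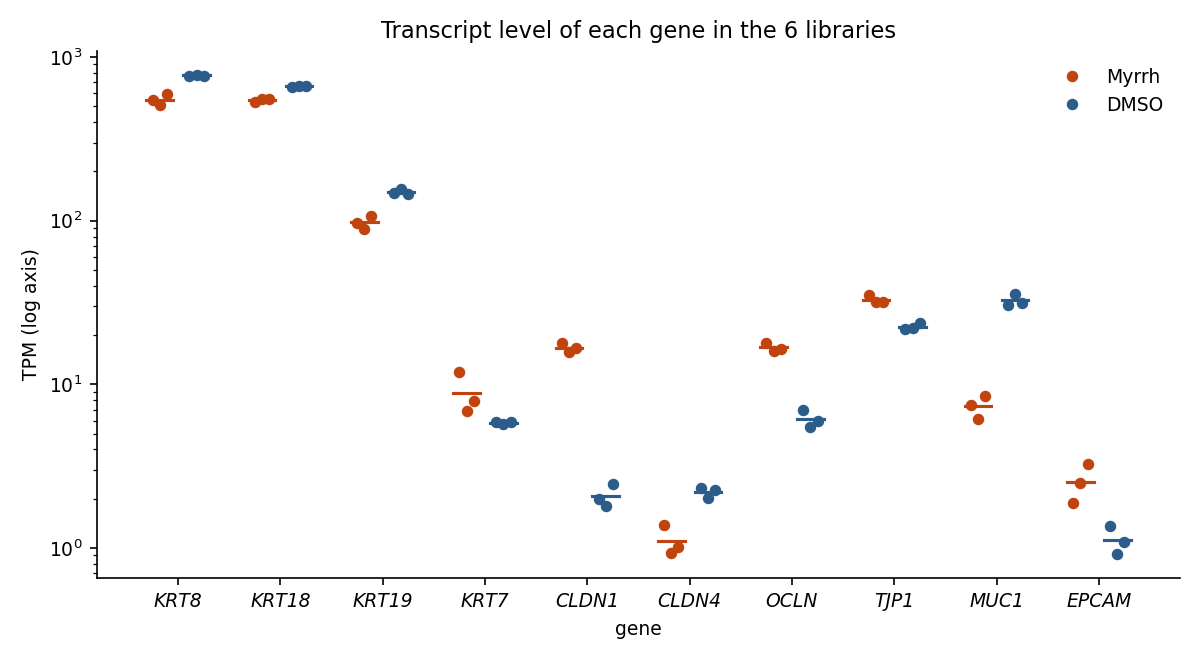
Level of the 10 genes in TPM (a transcript level scaled for gene length and library) on a log axis, with 1 point per library, Myrrh left of DMSO for each gene, and a line at the mean of 3 libraries. KRT8 and KRT18 lie between 509 and 780 TPM in every library, and CLDN1 lies at 15.7 to 17.9 TPM in Myrrh and 1.80 to 2.46 TPM in DMSO.

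The libraries held 22454783 to 24531493 estimated counts in Myrrh and 22592816 to 27588151 in DMSO. The 10 genes took 0.140% to 0.148% of these counts in Myrrh and 0.199% to 0.207% in DMSO. Mitochondrially encoded genes took 6.84% to 8.45% of counts in Myrrh and 14.0% to 14.7% in DMSO. The part that this difference in composition has in the values below was not tested, and scaling by library totals in place of TMM factors lowered the median fold change of all genes by 0.14 on the log2 scale.

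The cells held KRT8 and KRT18, the keratins of simple epithelium, at high levels, but 14 further epithelial markers outside the 10 genes at low levels. Of these 14 markers, GRHL2, EHF and SOX17 had no count in any library. CDH1, the gene of E-cadherin, averaged 0.194 CPM in Myrrh and 0.176 CPM in DMSO. Together the 14 markers summed to 10.98 to 14.3 CPM in Myrrh and 15.6 to 16.8 CPM in DMSO, with 3 of them tested, 1 higher and 1 lower. The most abundant were PAX8, a transcription factor of the Müllerian tract (7.43 ± 1.23 CPM in Myrrh and 6.002 ± 0.0997 CPM in DMSO; SD, n = 3 each), and SPINT1, a protease inhibitor (4.31 ± 0.477 CPM in Myrrh and 4.22 ± 0.0740 CPM in DMSO). PAX8 was higher by 0.30 ± 0.12 (SE; adjusted p 0.0286, edgeR), a call that was lost in 10 other settings, library totals and DESeq2 among them, and SPINT1 was not called (adjusted p 0.854). PAX8-AS1, annotated across PAX8 on the opposite strand, held 139 ± 6.52 CPM in Myrrh and 194 ± 8.40 CPM in DMSO, and with no stated strand setting the PAX8 value is uncertain. Stromal markers were far more abundant. Of the 13 tested 12 were lower in Myrrh and 1 higher, against 39.1% lower and 39.3% higher of all genes tested. The stromal markers summed to 3580 to 3780 CPM in Myrrh and 11645 to 11816 CPM in DMSO. COL1A1, the main chain of type I collagen, was at 762 ± 17.1 CPM in Myrrh and 5725 ± 164 CPM in DMSO, and VIM, the filament protein of mesenchymal cells, at 1992 ± 105 CPM in Myrrh and 2710 ± 26.1 CPM in DMSO. COL1A2 fell by 2.65 ± 0.06 on the log2 scale, and CDH2, the gene of N-cadherin, rose by 0.25 ± 0.06, a call that was lost with library totals. The label of the cells does not name a cell type within the lesion, and these RNA data hold markers of both kinds.

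Endothelial markers were at or near 0, and leukocyte markers were low apart from CD68. Smooth muscle markers were more abundant in sum than the 14 further epithelial markers, but less abundant than the 10 genes themselves. The 10 genes summed to 1439 to 1556 CPM in Myrrh and 1890 to 1977 CPM in DMSO. Of 10 endothelial markers CDH5 and EMCN had no counts, and the list summed to 0.846 to 1.13 CPM in Myrrh and 1.89 to 2.64 CPM in DMSO, with ESAM, the single one tested, lower. Of 11 leukocyte markers CD3E, CD3D and MS4A1 were among those with no counts, and of 3 tested 1 was higher and 2 were lower. That list summed to 51.4 to 63.8 CPM in Myrrh and 34.2 to 35.3 CPM in DMSO, nearly all from CD68, a lysosomal protein that other cells also make (56.5 ± 6.28 CPM in Myrrh and 31.6 ± 0.716 CPM in DMSO), while CD14 averaged 0.445 CPM in Myrrh and 2.18 CPM in DMSO. Of 8 smooth muscle markers 4 were lower and 4 were not called, with sums of 377 to 399 CPM in Myrrh and 415 to 441 CPM in DMSO. ACTA2, smooth muscle actin, fell by 0.84 ± 0.07 on the log2 scale and LMOD1 by 1.88 ± 0.17, and the most abundant of the list, CALD1 (255 ± 8.96 CPM in Myrrh and 278 ± 16.3 CPM in DMSO; -0.12 ± 0.06) and TAGLN (74.3 ± 4.65 CPM in Myrrh and 73.4 ± 3.63 CPM in DMSO; 0.02 ± 0.06), were not called. The counts of called markers in these small lists stand beside 39.3% higher and 39.1% lower of all genes tested. The part of these markers in the results on the 10 genes was not tested.

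The keratins KRT8 and KRT18 were the most abundant of the 10 genes and both fell, KRT8 by more. KRT8, the type II chain of simple epithelia, held 543, 509 and 592 TPM in the Myrrh libraries and 766, 780 and 769 TPM in the DMSO libraries. All 3 Myrrh libraries were below all 3 DMSO libraries, and the log2 fold change from estimated counts was -0.54 ± 0.06 (SE; adjusted p 2.02e-09, edgeR). KRT18, its type I partner, held 534, 554 and 556 TPM in Myrrh and 652, 662 and 669 TPM in DMSO. The groups were apart here too, with a log2 fold change of -0.31 ± 0.06 (adjusted p 2.29e-05, edgeR). In CPM, KRT18 stood at 507 ± 31.3 in Myrrh and 627 ± 13.2 in DMSO, and KRT8 at 693 ± 41.9 in Myrrh and 1010 ± 28.0 in DMSO (SD, n = 3).

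KRT19, the smallest keratin and a type I chain of ducts and glands, showed the largest decrease of the keratins. It held 97.4, 89.5 and 106 TPM in Myrrh and 149, 156 and 145 TPM in DMSO, so that every Myrrh library lay below every DMSO library. Its log2 fold change was -0.64 ± 0.06 (adjusted p 1.89e-10, edgeR). KRT7, the type II keratin of glandular epithelium, was on average the least abundant of the 4 keratins and was higher in Myrrh. It held 12.0, 6.91 and 7.86 TPM in Myrrh and 5.92, 5.74 and 5.85 TPM in DMSO, from 82.9, 66.9 and 63.0 estimated counts in Myrrh and 52.8, 56.0 and 66.0 in DMSO. Myrrh replicate 1 stood above the others in TPM, and the log2 fold change was 0.53 ± 0.18 (adjusted p 0.0108, edgeR). That call was lost without Myrrh replicate 1 (0.45, adjusted p 0.0517), without DMSO replicate 2 (0.45, adjusted p 0.0508) and with library totals (0.39, adjusted p 0.0589), and over all settings its adjusted p was at most 0.0589.

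Since type II and type I chains pair in equal numbers, the keratins were also compared as ratios of TPM within each library. The ratio of KRT8 to KRT18 on the log2 scale was 0.02, -0.12 and 0.09 in the Myrrh libraries and 0.23, 0.23 and 0.20 in the DMSO libraries. This put the pair at 0.998 KRT8 transcripts per KRT18 transcript in Myrrh and 1.17 in DMSO, a difference of -0.23 on the log2 scale with no overlap between groups. The ratio summed over all type II and all type I keratins was -0.35 ± 0.10 in Myrrh and -0.11 ± 0.02 in DMSO (log2; SD, n = 3), a difference of -0.24. For both ratios the two-sided exact permutation test over the 6 libraries gave p = 0.1, the smallest it can give, and 0.1 after adjustment over the 2 ratios, so the design could not reach 0.05.

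Over all 55 keratin genes listed, the summed level was 1289 ± 49.9 TPM in Myrrh and 1630 ± 18.1 TPM in DMSO. KRT8, KRT18 and KRT19 made up 92.6% ± 0.601 of this sum in Myrrh and 97.1% ± 0.166 in DMSO. The rest of the sum came from few genes. KRT10, a type I keratin best known from the upper epidermis, held 5.13% ± 0.529 in Myrrh and 2.01% ± 0.172 in DMSO. KRT34, a type I keratin of hair, held 0.571% ± 0.0159 in Myrrh and 0.0178% ± 0.00269 in DMSO. Of the 27 other type I keratins 4 passed the filter, of which 3 rose and none fell. Over all genes tested, 39.3% were called higher and 39.1% lower, and 4 genes are few to set beside that. KRT34 rose to 8.84 ± 0.652 CPM in Myrrh against 0.358 ± 0.0551 CPM in DMSO, a log2 fold change of 4.59 ± 0.20 (adjusted p 2.26e-17, edgeR). KRT10 rose by 0.86 ± 0.07. GENCODE places 3490 bases of it opposite TMEM99, which averaged 9.21 ± 0.416 CPM in Myrrh and 4.22 ± 0.316 CPM in DMSO, while KRT10 averaged 36.1 ± 2.76 CPM in Myrrh and 19.9 ± 0.880 CPM in DMSO. Without the strand setting, reads of the overlap cannot be told apart. Of the 24 other type II keratins 2 were tested, and KRT80 rose by 0.71 ± 0.08, to 27.3 ± 2.44 CPM in Myrrh against 16.7 ± 1.28 CPM in DMSO. No count was found in any library for 12 of the other type I and 13 of the other type II keratins, KRT1 and KRT6A among them.

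**Figure D2:**
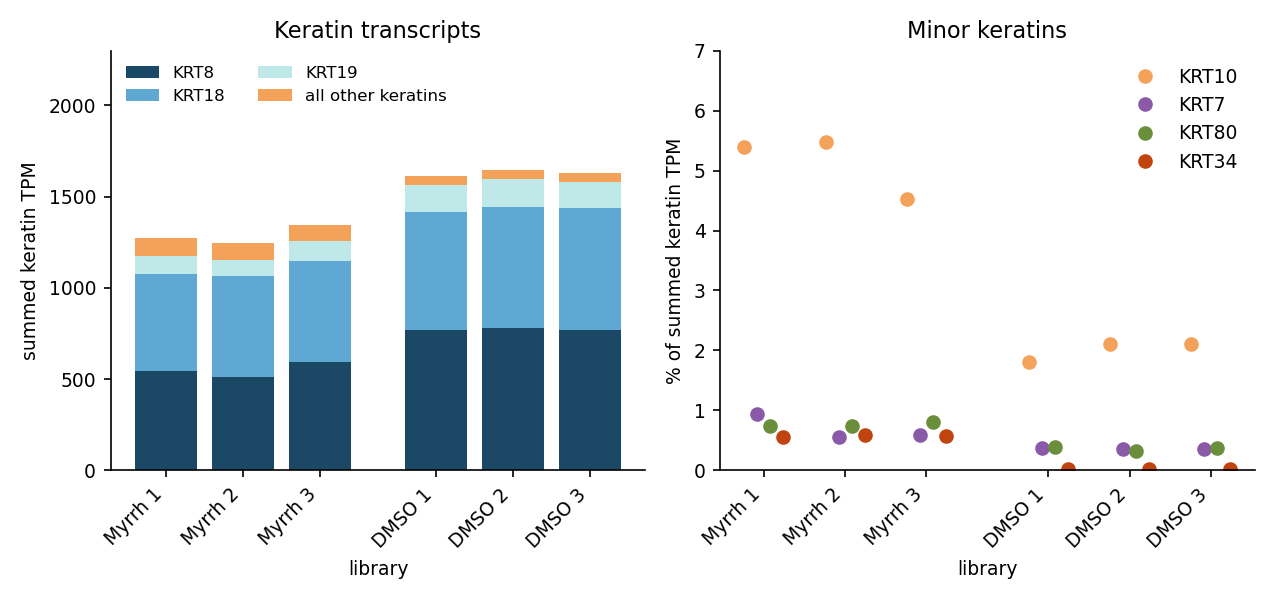
Left, summed TPM of all keratin genes in each library, split into KRT8, KRT18, KRT19 and the rest; right, the share of this sum held by 4 minor keratins, in percent. The sum is 1248 to 1345 TPM in the Myrrh libraries and 1611 to 1647 TPM in the DMSO libraries, and KRT10 holds 4.52% to 5.47% in Myrrh and 1.81% to 2.11% in DMSO.

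Reads of keratin genes can be shared with pseudogene copies and with a neighbour. The tables list 51 pseudogene copies of KRT8, which together held 1.42% to 2.04% as many counts as KRT8 in the 6 libraries, and 67 of KRT18, at 0.127% to 0.249%. Adding these counts left the log2 fold changes at -0.54 for KRT8 and -0.31 for KRT18. In GRCh38, KRT8 is annotated on chromosome 12 at 52897187 to 52949954 on the minus strand and KRT18 at 52948871 to 52952901 on the plus strand, so that they overlap by 1084 bases on opposite strands. Without the strand setting, reads from that overlap cannot be assigned with certainty. KRT7 lies on the same chromosome at 52232520 to 52252186, and the genes that overlap it on the other strand averaged 0.0452 CPM in Myrrh and 0.109 CPM in DMSO in sum, while KRT86 overlaps it on the same strand. KRT19 lies on chromosome 17 at 41523617 to 41528308.

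CLDN1 and CLDN4, which both seal the space between epithelial cells, changed in opposite directions. CLDN1 held 17.9, 15.7 and 16.6 TPM in the Myrrh libraries and 2.0, 1.80 and 2.46 TPM in the DMSO libraries. The lowest Myrrh library was thus far above the highest DMSO library, and the log2 fold change was 2.96 ± 0.09 (adjusted p 1.06e-20, edgeR). CLDN4 held 1.38, 0.93 and 1.01 TPM in Myrrh and 2.33, 2.03 and 2.25 TPM in DMSO. Its estimated counts were 63, 46 and 46 in Myrrh and 160, 140 and 146 in DMSO, and its log2 fold change was -1.29 ± 0.17 (adjusted p 1.15e-07, edgeR). On log2(TPM + 1), which shrinks the changes of genes at such low levels, it was -0.61. With 0.1 added in place of 1 it was -0.95, and on counts with the effective gene length as an offset, described below, -1.07. In DMSO both claudins stood near 2 TPM with overlapping libraries, at 2.09 ± 0.338 for CLDN1 and 2.20 ± 0.155 for CLDN4, while in Myrrh CLDN1 stood at 16.7 ± 1.12 and CLDN4 at 1.11 ± 0.240 TPM. The genes lie apart, CLDN1 on chromosome 3 at 190305701 to 190322475 with 4 exons in its longest transcript, and CLDN4 on chromosome 7 at 73799542 to 73832693 with 2.

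The 250 bases before the RefSeq start of both genes are shown because the paralogues moved apart, with MUC1, the gene that fell most, for comparison. They are from GRCh38.p14, 5′ to 3′ on the strand of the gene, at chr3:190322447-190322696 (minus) for CLDN1, chr7:73830746-73830995 (plus) for CLDN4 and chr1:155192916-155193165 (minus) for MUC1. Capitals mark matches on either strand to CACCTG, the E-box bound by the repressors ZEB and SNAI, GGGCGG, the GC box, TGANTCA, the AP-1 site, and TATAAA, the TATA box.
CLDN1: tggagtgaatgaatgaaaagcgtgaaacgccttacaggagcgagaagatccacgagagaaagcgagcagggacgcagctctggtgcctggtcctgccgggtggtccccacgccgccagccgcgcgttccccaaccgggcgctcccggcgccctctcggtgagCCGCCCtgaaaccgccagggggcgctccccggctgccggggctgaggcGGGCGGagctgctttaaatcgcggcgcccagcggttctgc
CLDN4: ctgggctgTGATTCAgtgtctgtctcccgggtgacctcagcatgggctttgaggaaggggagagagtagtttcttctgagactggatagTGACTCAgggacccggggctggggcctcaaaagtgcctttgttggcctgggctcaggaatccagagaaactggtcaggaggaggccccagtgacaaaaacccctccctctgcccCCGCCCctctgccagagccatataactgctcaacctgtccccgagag
MUC1: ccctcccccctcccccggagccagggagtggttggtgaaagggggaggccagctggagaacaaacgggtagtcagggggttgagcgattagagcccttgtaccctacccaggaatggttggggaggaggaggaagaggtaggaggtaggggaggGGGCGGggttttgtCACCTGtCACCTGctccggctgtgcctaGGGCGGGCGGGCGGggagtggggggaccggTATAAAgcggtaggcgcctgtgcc
The CLDN1 window held 2 matches to GGGCGG and the CLDN4 window 1, and CLDN4 alone of these held TGANTCA, with 2 matches at -242 and -161 from the start. The MUC1 window held CACCTG at -82 and -75, 4 matches to GGGCGG of which 3 overlap, and TATAAA at -24. Of 34788 such windows over all genes, 17.5% held this repressor E-box, 42.6% the GC box, 6.59% the AP-1 site and 10.8% the TATA box. Any E-box, searched as CANNTG and so including the repressor form, stood in 61.8% of windows, in the MUC1 window 3 times and in neither claudin window. The core of a heat shock element, searched as GAANNTTC, stood in 5.8% and in none of the 3. RefSeq windows were matched for 6 of the 10 genes, and beside MUC1 the first listed starts of OCLN and TJP1 held 1 CACCTG each. Starts 2 to 4 of TJP1 held none. The KRT8 window held none either, but it lies at chr12:52926470-52926719, inside the gene as GENCODE annotates it, and may not be the start in use. The same limit holds for the CLDN4 window, which lies inside the GENCODE gene, at 73799542 to 73832693 on the plus strand. Both OCLN windows and those of TJP1 starts 2 to 4 also lie inside their annotated genes. These are matches of letters only.

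OCLN and TJP1, the other junction genes, both rose. OCLN, whose product occludin is a tetraspan protein of the tight junction strand, held 18, 15.96 and 16.4 TPM in Myrrh and 6.97, 5.52 and 5.95 TPM in DMSO. The groups were well apart, and the log2 fold change from estimated counts was 0.82 ± 0.07 (adjusted p 2.19e-11, edgeR). TJP1, the gene of the scaffold ZO-1, held 35.0, 31.9 and 31.7 TPM in Myrrh and 21.8, 22.2 and 23.6 TPM in DMSO. Its log2 fold change was 0.49 ± 0.05 (adjusted p 6.62e-10, edgeR), with no overlap between groups. This and the 0.53 ± 0.18 of KRT7 were the smallest rises among the 5 genes that were higher, and their order is not settled. On log2(TPM + 1) TJP1 stood at 0.525 and KRT7 at 0.502. OCLN lies on chromosome 5 at 69492292 to 69558104, and TJP1 on chromosome 15 at 29699367 to 29968865 with 28 exons in its longest transcript. Genes on the other strand within TJP1 averaged 4.89 CPM in Myrrh and 7.65 CPM in DMSO in sum, while TJP1 itself averaged 117 ± 2.49 CPM in Myrrh and 82.8 ± 1.79 CPM in DMSO.

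For OCLN the TPM values rose more than the counts did. In TPM the mean was 16.8 ± 1.07 in Myrrh and 6.15 ± 0.745 in DMSO, a ratio of 2.73, whereas the fold change from counts was 1.76. TPM divides counts by an effective gene length that RSEM estimates in each library from the mix of transcripts, and the ratio of count to TPM gives that length relative to the median gene. For OCLN it was 1.86, 1.95 and 1.76 in the Myrrh libraries and 2.64, 2.86 and 2.82 in the DMSO libraries. The groups did not overlap, with a difference of -0.58 on the log2 scale, and 1.34% of the 11604 genes with a mean of at least 5 CPM had a difference as low or lower. With this length entered as an offset in edgeR, a setting added after the data were seen, the log2 fold change of OCLN was 1.38 (adjusted p 2.46e-09), and over all settings it lay between 0.67 and 1.44. GENCODE release 29 lists 3 coding transcripts of OCLN, from 1748 to 6438 bases. The single pseudogene copy listed, OCLNP1, held 0.445% to 1.28% as many counts as OCLN in Myrrh and 2.84% to 5.02% in DMSO, and with its counts added the log2 fold change was 0.77.

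**Figure D3:**
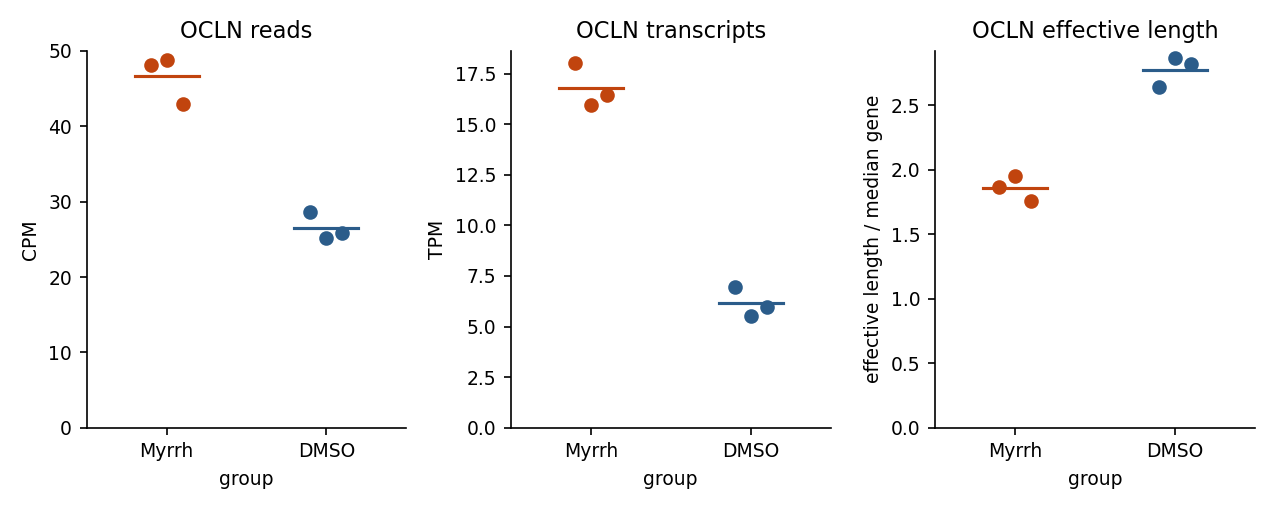
OCLN in each library as CPM, as TPM and as effective length relative to the median gene, with 1 point per library, Myrrh left of DMSO, and a line at the mean of 3 libraries. CPM is 43.0 to 48.9 in Myrrh and 25.2 to 28.6 in DMSO, and the relative length is 1.76 to 1.95 in Myrrh and 2.64 to 2.86 in DMSO.

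The relative length also differed without overlap for MUC1, at 0.461 ± 0.0238 in Myrrh and 0.544 ± 0.0297 in DMSO. For CLDN4 it was 1.40 ± 0.0547 in Myrrh and 1.63 ± 0.201 in DMSO, again without overlap. DMSO replicate 1 of CLDN4 stood at 1.86, against 1.50 and 1.52 in the other DMSO libraries and at most 1.44 in Myrrh. The share of all genes whose lengths did not overlap was not counted, so a lack of overlap is not by itself a result about these genes. With the length offset the log2 fold change was -2.23 for MUC1 and -1.07 for CLDN4. CLDN1, KRT18 and KRT19 did not overlap either, but of the other 7 genes the largest difference of this length in either direction was 0.04 on the log2 scale, for KRT19, against a median of 0.02 over the 11604 genes. The plot of fold changes on 3 scales sets these values side by side.

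**Figure D4:**
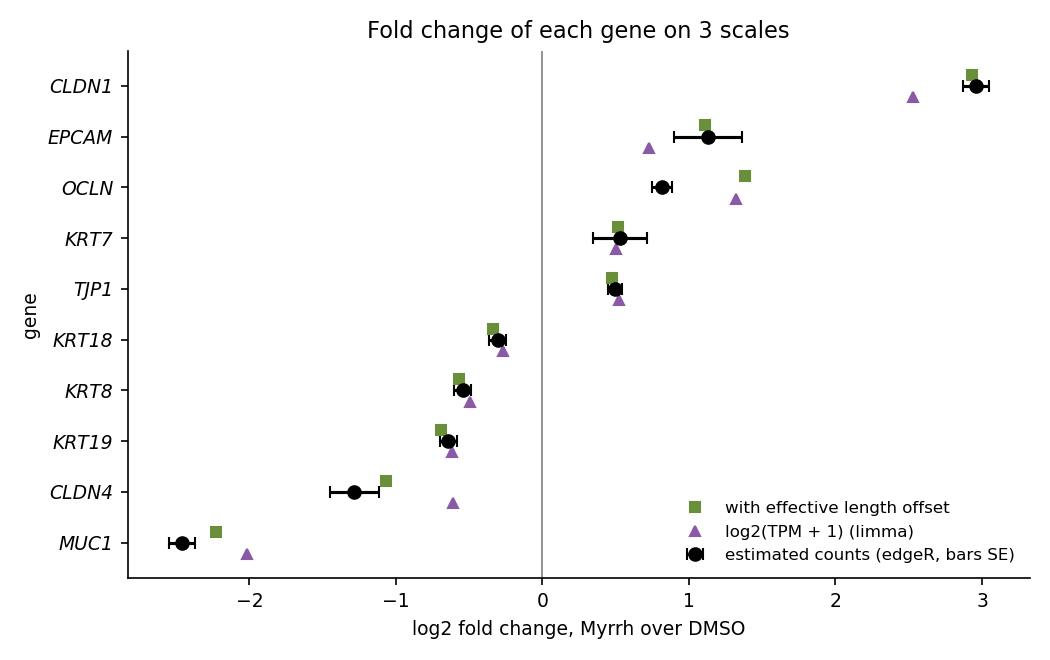
Log2 fold change, Myrrh over DMSO, of the 10 genes from estimated counts (circles, bars show the SE), from the same test with an effective length offset (squares) and on log2(TPM + 1) (triangles). All 3 scales give each gene the same direction, and OCLN moves from 0.82 on counts to 1.38 with the offset.

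MUC1, the surface mucin, fell the most of the 10 genes. It held 7.46, 6.15 and 8.43 TPM in the Myrrh libraries and 30.5, 35.6 and 31.6 TPM in the DMSO libraries. The highest Myrrh library was thus far below the lowest DMSO library, and the log2 fold change was -2.46 ± 0.09 (adjusted p 1.26e-18, edgeR). The estimated counts behind these levels were 116, 105 and 118 in Myrrh and 649, 844 and 731 in DMSO. MUC1 lies on chromosome 1 at 155185824 to 155192916, and GENCODE lists 23 coding transcripts of 516 to 4170 bases. Of the 17 other mucins 2 were tested. MUC20 fell by 2.55 ± 0.22 on the log2 scale, to 0.725 ± 0.154 CPM in Myrrh against 4.28 ± 0.588 CPM in DMSO, and MUC12 rose by 1.15 ± 0.26, to 1.86 ± 0.457 CPM in Myrrh against 0.839 ± 0.0608 CPM in DMSO. MUC4 and MUC16, membrane mucins of the reproductive tract, had no count in any library.

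EPCAM was among the lowest of the 10 genes in both groups and was higher in Myrrh. It held 45, 57 and 51 estimated counts in Myrrh and 27, 29 and 27 in DMSO, or 1.89, 2.50 and 3.24 TPM in Myrrh and 1.37, 0.92 and 1.08 TPM in DMSO. The groups did not overlap, and the log2 fold change was 1.13 ± 0.23 (adjusted p 8.38e-05, edgeR), or 0.73 on log2(TPM + 1). With a filter of 5 CPM in 3 libraries neither EPCAM nor KRT7 was tested. The gene lies on chromosome 2 at 47345158 to 47387601. Of 16 genes listed around EPCAM, mainly its membrane partners and the proteases that cut it, 13 were tested, 6 were higher and 4 lower, with a median log2 fold change of 0.03. Among all genes tested the shares were 39.3% higher and 39.1% lower. FHL2, a LIM domain protein that binds the released tail of EPCAM, rose by 1.67 ± 0.06, and ADAM17, the sheddase that cuts its outer part, by 1.18 ± 0.09. TSPAN8, a tetraspanin partner, fell by 4.13 ± 0.19 on the log2 scale, to 0.515 ± 0.121 CPM in Myrrh against 9.16 ± 0.357 CPM in DMSO, and the tetraspanin CD9 by 1.10 ± 0.06.

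The order of mean levels differed between the groups. In Myrrh the mean TPM ran from KRT18 and KRT8 (548 each, with overlapping libraries) over KRT19, TJP1, OCLN, CLDN1, KRT7, MUC1 and EPCAM to CLDN4. In that order the libraries of OCLN and CLDN1 overlapped, as did those of KRT7 and MUC1, and the other neighbours were apart. In DMSO it ran from KRT8 (771) and KRT18 (661) over KRT19, MUC1, TJP1, OCLN, KRT7, CLDN4 and CLDN1 to EPCAM, and OCLN overlapped with KRT7 and CLDN4 with CLDN1.

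Genes of the same families and structures moved both ways. The counts of called genes in these small lists stand beside 39.3% higher and 39.1% lower of all genes tested. Among the 22 other claudins 5 were tested, 2 were higher and 2 lower. CLDN11, a claudin known from myelin and the testis, was the most abundant claudin of the table and fell by 1.59 ± 0.06 on the log2 scale, to 164 ± 8.21 CPM in Myrrh against 492 ± 11.8 CPM in DMSO. CLDN15 fell by 0.29 ± 0.09, while CLDN23 rose by 1.14 ± 0.14 and CLDN12 by 0.71 ± 0.06. Of 30 other tight junction and polarity genes 27 were tested, 14 were higher and 8 lower, with a median of 0.20. CGN, the plaque protein cingulin, rose by 1.49 ± 0.33 and MARVELD2, tricellulin, which sits where several cells meet, by 1.46 ± 0.10. The CGN value rests on few and uneven counts, 45, 44 and 36 in Myrrh and 10, 11 and 32 in DMSO. CXADR, a receptor of the tight junction, fell by 0.97 ± 0.09, to 8.38 ± 0.382 CPM in Myrrh against 16.4 ± 1.44 CPM in DMSO.

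**Figure D5:**
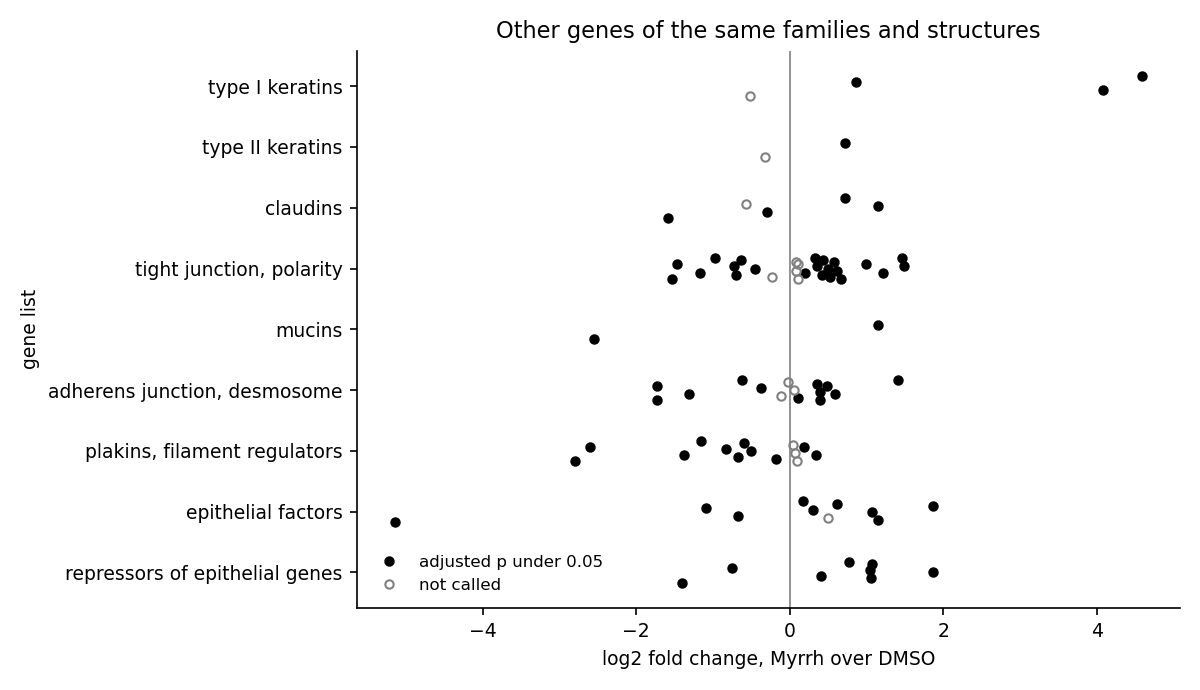
Log2 fold change, Myrrh over DMSO, of the tested genes of 9 lists of related genes, with 1 point per gene, filled where edgeR's adjusted p was under 0.05. The plakins and filament regulators lie mostly below 0, with 9 of 14 lower and 2 higher, and the repressors of epithelial genes mostly above, with 6 of 8 higher and 2 lower. Of all genes tested, 39.3% were called higher and 39.1% lower.

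Of 23 adherens junction and desmosome genes 15 were tested, 7 were higher and 5 lower, with a median of 0.06. JUP, plakoglobin of both structures, fell by 1.73 ± 0.09 and PKP3, a plakophilin of the desmosome, by 1.31 ± 0.17. DSC3, a desmosomal cadherin, rose by 1.41 ± 0.29 and NECTIN3, an adhesion molecule of the adherens junction, by 0.59 ± 0.06. The counts of DSC3 were few and uneven, 84, 44 and 40 in Myrrh and 27, 17 and 30 in DMSO. Plakins, which link keratin filaments to desmosomes and other structures, were listed with regulators of keratin filaments; 14 of 15 were tested, 9 were lower and 2 higher, with a median of -0.55. PPL, periplakin, fell by 2.79 ± 0.09 on the log2 scale, to 3.73 ± 0.269 CPM in Myrrh against 25.9 ± 0.167 CPM in DMSO, and EPPK1, epiplakin, by 2.61 ± 0.26.

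Transcription and splicing factors of epithelial cells were tested in 10 of 22 cases, with 6 higher, 3 lower and a median of 0.40. FOXA1, a pioneer factor of glandular tissues, rose by 1.87 ± 0.21 and GRHL1, a grainyhead factor, by 1.15 ± 0.12. ELF3, an ETS factor of epithelia, fell by 5.15 ± 0.28 on the log2 scale, to 0.135 ± 0.0520 CPM in Myrrh against 4.90 ± 0.207 CPM in DMSO, and TFAP2A by 0.68 ± 0.06. ELF3-AS1, on the strand opposite ELF3, averaged 2.24 ± 0.632 CPM in Myrrh and 7.26 ± 0.667 CPM in DMSO, so the ELF3 value is uncertain in the same way. So are those of ACTA2, ADAM17, ESAM, MUC12, TAGLN and TSPAN8, which also lie opposite detected genes. The same limit holds for TFAP2A, KRT80, CD68, VIM, NECTIN3, PPL and other named genes with a detected gene on the opposite strand. Of 9 repressors of epithelial genes 8 were tested, 6 were higher and 2 lower, with a median of 0.91. FOXC2 rose by 1.86 ± 0.17 and TWIST2 by 1.07 ± 0.06, while TCF4 fell by 1.41 ± 0.07 and TWIST1 by 0.75 ± 0.08.

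For each of the 10 genes the closest pattern was sought among 11367 genes or fewer with a symbol and a mean of at least 5 CPM, as the root mean square difference of log2(CPM + 0.5), centred on each gene's mean, over the 6 libraries. The closest were MACROH2A1 for KRT18 (0.012), APC for TJP1 (0.016), GALK1 for KRT8 (0.018), TSPAN4 for KRT19 (0.030), RNF168 for OCLN (0.034), TNS2 for MUC1 (0.039) and HSPD1 for CLDN1 (0.088). For the 3 genes with few counts they were UTP23 for KRT7 (0.022), VRK1 for EPCAM (0.043) and ZMPSTE24-DT for CLDN4 (0.091). The added 0.5 shrinks differences of genes at low CPM, and the log2 fold change was 1.13 for EPCAM and 0.84 for VRK1.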

How the data were processed

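Total RNA of 3 Myrrh and 3 DMSO libraries was sequenced from 1.5 µg per library with a TruSeq RNA kit, per the labels' protocols. The authors deposited estimated counts per gene, not scaled between libraries, and log2(TPM + 1) values; per the submitters' processing notes, STAR, RSEM 1.3.1 and GRCh38 were used. The sources used here give neither annotation release nor strand setting. Of the estimated counts above 0, 29.7% to 30.3% were not whole, since RSEM splits ambiguous reads.

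Counts were rounded, filtered with filterByExpr, scaled with TMM and tested over all 16395 remaining genes with edgeR 4.0.16 (R 4.3.3; glmQLFit, robust, two-sided, no block) and Benjamini-Hochberg adjustment at 0.05; an SE is the log2 fold change over the root of F. The procedure was also run on data simulated with the means and dispersions of this fit, and the outcome is not reported here. CPM use TMM-scaled library sizes, TPM were recovered from the authors' values, and errors of CPM and TPM are SDs over 3 libraries. DESeq2 1.42.0, limma 3.58.1, other scalings and filters, a replicate block and fits without each library were alternatives. Libraries of a group differed beyond sampling noise, with chi-square values of 3.65 to 8.71 per degree of freedom. Replicate numbers are not said to mark a shared culture or day, so the main test had no block.

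The 10 genes, 17 further gene lists and motifs were chosen with earlier results of these data known. Named are all 10 genes, up to 2 called genes with the highest and 2 with the lowest fold change per list (at least 1 CPM in either group), the 2 most abundant markers per list, and the closest pattern; other names were chosen after values were seen, and some genes that the rule names are not reported here. Gene positions are from GENCODE release 29 and promoters from RefSeq, both on GRCh38.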

Additional observations from a re-analysis of the deposited data

How the results depend on the processing

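In the refits of the 10 genes, 150 values kept direction and call, and 3 kept direction but lost the call, all for KRT7 (given above). Called members numbered 10 with DESeq2, RLE factors, no filter, the length offset and both TPM scales, 9 with library totals and 8 when 5 CPM were required in 3 libraries, which left 2 untested; leaving out 1 library gave 9 to 10. Members at 2-fold or more numbered 3 to 5 in these settings. The called genes overall numbered 10079 to 13901, and library totals moved the share of higher calls to 41.8%, against 50.1%. With the replicate block 12782 genes and all 10 members were called. Deviations from the group mean correlated at -0.099, 0.011 and -0.001 for same-numbered libraries and at -0.116 to 0.121 for the others. With 3 libraries per group these values show no sign of pairing but cannot exclude a shared culture or day. The difference in KRT8 to KRT18 ratio was -0.27 to -0.17 without 1 library, and that of type II to type I -0.28 to -0.19. Among other genes named, 2 that were not called changed sign: SPINT1 was at -0.051 with the length offset, -0.111 with library totals and -0.033 to 0.109 without 1 library, at -0.003 without Myrrh replicate 3. TAGLN was at -0.081 with the 5 CPM filter, -0.125 with library totals (called lower, adjusted p 0.0498, edgeR) and -0.015 to 0.068 without 1 library, at -0.010 without DMSO replicate 3 or Myrrh replicate 2. CALD1 was called lower in 7 settings, library totals among them (-0.27). The cause was not tested. CLDN4, EPCAM and KRT7 rest on 27 to 160 counts per library, which limits their precision.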

Other observations

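Further lists around the same proteins, the enzymes that glycosylate mucins and the filament proteins other than keratins, also moved both ways. Their counts of called genes stand beside 39.3% higher and 39.1% lower of all genes tested. Of 19 enzymes of mucin O-glycosylation 15 were tested, 4 were higher and 7 lower, with a median log2 fold change of -0.18. C1GALT1, which makes the core 1 sugar of mucins, rose by 0.88 ± 0.07 and the sialyltransferase ST3GAL1 by 0.50 ± 0.06, while ST6GALNAC2 fell by 0.93 ± 0.13 and GCNT1, which builds the core 2 branch, by 0.87 ± 0.07 (SE; edgeR). Of 16 other intermediate filament and lamin genes 14 were tested, 4 were higher and 7 lower, with a median of -0.29. LMNB1, lamin B1 of the nuclear envelope, fell by 1.65 ± 0.05 on the log2 scale, to 53.3 ± 0.674 CPM in Myrrh against 167.2 ± 1.26 CPM in DMSO, and BFSP1 by 0.91 ± 0.17. PRPH, peripherin, rose by 2.57 ± 0.32, to 1.74 ± 0.0713 CPM in Myrrh against 0.288 ± 0.113 CPM in DMSO, and NEFM, a neurofilament chain, by 1.53 ± 0.31. GCNT1, PRPH, NEFM, ST6GALNAC2, BFSP1 and ST3GAL1 lie opposite detected genes on the other strand, and with no stated strand setting their values are uncertain.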
